A study of Homo sapiens with 17 samples.

Results

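The genes described here encode actin, tubulin and vimentin, the main building blocks of the cytoskeleton in cultured human cells. They were the 9 genes ACTB, ACTG1, TUBA1A, TUBA1B, TUBA1C, TUBB, TUBB4B, TUBB2A and VIM. A polymerase site was taken as belonging to one of them when it lay inside the gene's annotated span (GENCODE release 29, GRCh38) and on the gene's strand. This gave 251 distinct positions of 158141 in the whole study, listed 330 times over 4 tables, and 8 of the 9 genes had at least 1 site. TUBB had none.

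The study applied time-variant precision run-on sequencing (TV-PRO-seq) to HEK293 cells, an established line from human embryonic kidney. Polymerases in permeabilised cells extend their RNA by labelled nucleotides for a set run-on time, and the RNA 3′ end marks where each polymerase stood. Libraries were made after 0.5, 2, 8 and 32 min, with the detergent sarkosyl in the run-on buffer or without it, in 2 replicates each (16 libraries). For each buffer and replicate number the authors deposited 1 table, called a series here, with a pausing time per site in a unit of time that is not stated.

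Actin filaments are built from β-actin (ACTB) and γ-actin (ACTG1), microtubules from dimers of α-tubulin (TUBA1A, TUBA1B, TUBA1C) and β-tubulin (TUBB, TUBB4B, TUBB2A), and vimentin (VIM) forms the intermediate filaments of mesenchymal and many cultured cells. RNA polymerase II commonly pauses shortly after a gene's start before it is released into elongation, and it can dwell again within the gene and past its end. Sarkosyl strips many proteins from chromatin and blocks new initiation, while engaged polymerases stay on the DNA. The actin and tubulin families have many nearly identical copies and pseudogenes, so a short read from one coding exon can match several loci.

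The 16 libraries analysed were of 1 cell line, and the labels set their 2 groups apart by the run-on buffer; a further sample labelled Trp treatment is not analysed here. The samples of each buffer were registered as a separate block. A difference between buffers therefore cannot be told apart from other differences between these blocks. All comparisons rest on 2 series per buffer, and the p-values measure only the spread between these series. The series with sarkosyl held 48566 and 47713 sites and those without it 66089 and 41769, and the replicates without sarkosyl differed in level. Over all sites the medians of the pausing time were 1.49 and 1.34 (sarkosyl) and 2.23 and 8 (sarkosyl-free). The tables give no read numbers, so the depth is unknown. As a check of the cell line, 3, 3, 2 and 2 of 5 HEK293 markers had a site in the series (LIN28B and NEFL in each), against 0, 1, 0 and 0 of 5 markers of KBM7, the leukaemia line named in the study's design. INA had a site in both sarkosyl series only, and NEFM and PAX2 had none in any series.

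The sequences below carry the main results: 2 sites that 3 α-tubulin genes share letter for letter, the sites listed in all 4 series, and the promoter-proximal and longest sites of individual genes. Each line gives 24 bases before the site, the site itself in a capital letter and 5 bases after it, read 5′ to 3′ along the gene's strand from GENCODE transcripts on GRCh38. Positions count from 1.
TUBA1A first shared site, chr12:49186761 minus strand: aatgcctgctgggagctctactgcCtggaa
TUBA1B first shared site, chr12:49129650 minus strand: aatgcctgctgggagctctactgcCtggaa
TUBA1C first shared site, chr12:49269537 plus strand: aatgcctgctgggagctctactgcCtggaa
TUBA1A second shared site, chr12:49186727 minus strand: gcatccagcccgatggccagatgcCaagtg
TUBA1B second shared site, chr12:49129616 minus strand: gcatccagcccgatggccagatgcCaagtg
TUBA1C second shared site, chr12:49269571 plus strand: gcatccagcccgatggccagatgcCaagtg
TUBA1B near the start, chr12:49131335 minus strand: acggtaaccgggacccggtgtctgCtcctg
TUBA1B near the start, chr12:49131340 minus strand: cggggacggtaaccgggacccggtGtctgc
ACTG1 coding exon, chr17:81510728 minus strand: tggattagcaagcaggagtacgacGagtcg
ACTG1 near the start, chr17:81512759 minus strand: agctctcgcactctgttcttccgcCgctcc
ACTB near the start, chr7:5530538 minus strand: gcctttgccgatccgccgcccgtcCacacc
ACTB gene body, chr7:5529796 minus strand: tgtttgccttttatggtaataacgCggccg
TUBB4B last coding exon, chr9:137243481 plus strand: caacatgaatgacctggtgtccgaGtacca
TUBB2A first coding exon, chr6:3157412 minus strand: ggccagtgcggcaaccagatcggcGccaag
VIM near the start, chr10:17229382 plus strand: gcctcttctccgggagccagtccgCgccac

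With sarkosyl the 9 genes together had 110 and 121 sites, and without it they had 66 and 33. These were 0.226% and 0.254% of all sites in the sarkosyl series, but 0.0999% and 0.079% in the sarkosyl-free ones. Both sarkosyl series lay above both sarkosyl-free series, 0.24% ± 0.0192 against 0.0894% ± 0.0147 (SD, n = 2 each), with an exact two-sided permutation p = 0.33, the smallest that 2 against 2 can give. Of the 251 positions, 163 were listed only with sarkosyl, 67 only without and 21 in both buffers. In pairs of a sarkosyl and a sarkosyl-free series, shared positions were 5.79% to 9.09% of the set's sarkosyl sites, against 11.7% to 18.8% of all. They were 15.2% to 24.2% of the set's sarkosyl-free sites, against 9.68% to 17.6% of all. By number of series, 185 positions were in 1 series, 55 in 2, 9 in 3 and 2 in all 4. Of all 158141 positions, 2967 were in all 4 series, and the other classes were not counted.

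TUBA1B had the most entries (71 at 49 positions in a span of 3616 bp), followed by VIM with 65 at 53, ACTG1 with 56 at 39, TUBA1C with 42 at 36, ACTB with 33 at 25, TUBB4B with 32 at 23, TUBA1A with 23 at 18 and TUBB2A with 8 at 8. Per kb of span TUBA1B carried 5.81 and 7.19 sites with sarkosyl and 4.70 and 1.94 without. TUBB4B came next in the sarkosyl series, with 4.01 and 5.21 sites per kb. The long annotated spans of ACTB (36638 bp) and TUBA1C (85868 bp) include far upstream transcripts, which lowers their figure to between 0.0466 and 0.355. By number of sites, ACTG1, TUBA1B and VIM stood above 98.2% or more of the genes with a site in both sarkosyl series. Without sarkosyl VIM remained above 95.8% and 94.4% of genes, while ACTB was above 66.4% and 65.2%.

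**Figure D1:**
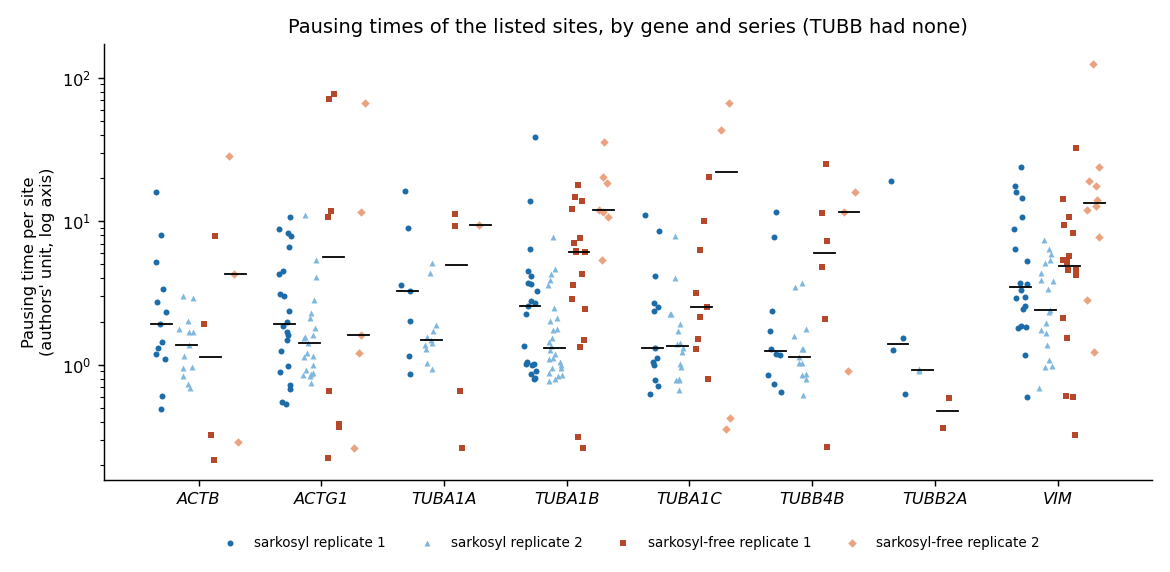
Pausing time of each listed site (log axis, authors' unit) by gene and series, with a black bar at the median of each series. VIM medians run from 2.42 to 13.5, and the sarkosyl-free series hold both the longest and the shortest value in ACTB, ACTG1, TUBA1C, TUBB4B and VIM.

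Pausing times of the set as a whole had medians of 2.36 and 1.41 with sarkosyl and 4.44 and 11.6 without, each above the median of all sites of that series (1.49, 1.34, 2.23 and 8). Sites longer than the series median numbered 69 of 110, 66 of 121, 40 of 66 and 21 of 33. The spread was wide: from 0.496 to 38.5 and 0.612 to 11.1 with sarkosyl, and from 0.217 to 76.9 and 0.265 to 125 without. Because rates were deposited with 3 decimals, only certain values are possible among the longest times.

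Replicates shared a minority of positions. With sarkosyl 47 positions were common to both series (42.7% of the first and 38.8% of the second), close to the 37.1% and 37.8% of all sites. Without it 11 were common (16.7% and 33.3%, against 21.0% and 33.3% of all sites). At the 47 shared sarkosyl positions the 2 pausing times differed by a median of 0.54 on the log2 scale, and 37 pairs lay within 1 log2 unit. At the 11 shared sarkosyl-free positions the second replicate was longer at 10, by a median of 1.03 log2 units. With sarkosyl a further 26 of 110 sites of the first series (23.6%) and 22 of 121 of the second (18.2%) had no exact match but a site of the other series within 5 bp, against 8.68% and 8.18% of all sites. Some of these genes were densely listed, such as TUBA1B with 5.81 and 7.19 sites per kb with sarkosyl. The part of this density in the near matches was not tested.

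ACTB, the β-actin gene, had 13, 13, 4 and 3 sites (sarkosyl replicates 1 and 2, then sarkosyl-free replicates 1 and 2), with median pausing times of 1.92, 1.38, 1.13 and 4.31. The reproducible site 63 bp downstream of the start, in the 5′ UTR, had pausing times of 1.10 and 0.962 with sarkosyl and was not listed without it. The site at 36 bp had 0.496 in sarkosyl replicate 1 and 0.29 in sarkosyl-free replicate 2. The other sites up to 100 bp ran from 0.217 at 35 bp in sarkosyl-free replicate 1 to 2.75 at 97 bp in sarkosyl replicate 1. The coding-exon site 1360 bp from the start had 3.37 and 3.04 with sarkosyl. The site at 805 bp, in an exon of a GENCODE transcript outside the basic and principal sets, had 8 in sarkosyl replicate 1. It had 7.87 and 4.31 without sarkosyl. Within each of the 3 series with at least 2 sites on either side, sites up to 300 bp from the start had a lower median than the rest of ACTB, by -1.55, -1.01 and -1.29 on the log2 scale. The deeper sites also included short ones, such as 0.685 at 3053 bp in sarkosyl replicate 2 and 0.322 at 1331 bp in sarkosyl-free replicate 1.

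ACTG1, the γ-actin gene, had 22, 21, 8 and 5 sites with medians of 1.94, 1.42, 5.65 and 1.61. It held 1 of the 2 positions found in all 4 series, a guanine in a coding exon 2027 bp from the start. The sarkosyl series gave 8.26 and 11.1 there, and the sarkosyl-free series 0.224 and 11.6. Sarkosyl-free replicate 1 alone stood far below the other 3 series, so the buffers overlapped; the authors' quartiles of the rate put that value between 0.121 and 0.41, and the other sarkosyl-free value between 7.58 and 17.2. The site 22 bp from a start, in the 5′ UTR, was alike in its 3 series, 1.25 and 1.21 with sarkosyl and 1.61 in sarkosyl-free replicate 2. In the 3′ UTR the site 2522 bp from the start had the shortest reproducible times, 0.536 and 0.831 with sarkosyl, whereas the site at 2781 bp had 10.6 and 66.7 without sarkosyl and none with it.

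TUBA1B, the α-tubulin gene with the most sites, had 21, 26, 17 and 7 of them with medians of 2.55, 1.31, 6.10 and 12.05. It held the other position found in all 4 series, a cytosine in the 5′ UTR 60 bp downstream of the start. Polymerases paused there for 1.004 and 0.875 in the sarkosyl series, against 6.17 and 12.05 in the sarkosyl-free ones, so the buffers did not overlap. How many of the 2967 sites shared by all 4 series also separate the buffers was not counted. The times given here are uncentred, and the medians over all sites were also longer without sarkosyl (1.49, 1.34, 2.23 and 8, same series order). The guanine 5 bases upstream of this cytosine, at 55 bp, showed the same order of buffers, with 0.867 in sarkosyl replicate 1 and 4.29 and 20.4 without sarkosyl. The remaining sites between 50 and 75 bp followed it: 0.797, 0.855, 1.05 and 1.05 in sarkosyl series and 6.10 in sarkosyl-free replicate 1. The order was the opposite at 156 bp, with 3.65 in sarkosyl replicate 1 and 0.3125 in sarkosyl-free replicate 1. Further in, the longest reproducible site with sarkosyl lay 744 bp from the start (13.9 and 4.67), where sarkosyl-free replicate 1 had 3.61. Of the 4 positions common to both sarkosyl-free series, the longest was intronic at 2422 bp (7.69 and 18.5) and the shortest lay in a coding exon at 2465 bp (2.86 and 5.41).

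TUBA1A, an α-tubulin best known from developing neurons, had 7, 11, 4 and 1 sites with medians of 3.29, 1.49, 4.96 and 9.35. No TUBA1A position was listed in both buffers. Its longest reproducible site with sarkosyl lay in the 5′ UTR 88 bp from the start, at 8.93 and 5.13. TUBA1C, the third α-tubulin, had 13, 16, 9 and 4 sites with medians of 1.32, 1.35, 2.53 and 22.0. Its single position common to both sarkosyl-free series lay in an intron 765 bp from the start, at 20.4 and 43.5. Its shortest reproducible site with sarkosyl was intronic too, at 4664 bp, with 0.712 and 0.790. The site 57 bp from the start of TUBA1C had 1.02 in sarkosyl replicate 2 and 2.53 in sarkosyl-free replicate 1.

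The 3 α-tubulin genes shared 2 listed sites in the same coding exon, 34 bp apart, with the same bases around them in each gene. Both sites were listed in both sarkosyl series in each of TUBA1A, TUBA1B and TUBA1C, and in neither sarkosyl-free series. At the first the pausing times were 3.29 and 1.49 in TUBA1A, 1.02 and 1.53 in TUBA1B, and 1.32 and 1.72 in TUBA1C. At the second they were 1.16 and 1.30 in TUBA1A, 0.812 and 1.35 in TUBA1B, and 0.786 and 1.23 in TUBA1C. The second site was shorter than the first in each gene and series. The 30 bases ending at each site are the same in the 3 genes, so a read of that length cannot be assigned to one of them. How the authors placed such reads is not given in the sources used here. The 3 genes' values at these sites therefore cannot be taken as separate measurements.

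Such repeats were more frequent among the sarkosyl sites. Of 187 positions of the set with 30 known bases, 34 had the same bases elsewhere in annotated transcripts, and for 14 the copy was itself a listed site. With sarkosyl 25.3% and 22.9% of the sites had a copy, whereas 4.44% and 4% had one without it. The sarkosyl-free shares rest on a TUBA1A site (0.656) and a TUBA1B site (6.13) in replicate 1 and an ACTG1 site (1.22) in replicate 2. Copies were not counted over all sites. Coding exons held a smaller share of the set's sites without sarkosyl, and their part in this was not tested. Between them TUBA1A, TUBA1B, TUBA1C, TUBB2A, TUBB4B, ACTB and ACTG1 supplied the sites with a copy, and the copies included pseudogenes such as ACTBP2 and TUBAP2. Of 65 annotated actin, tubulin and vimentin pseudogenes, 2, 5, 3 and 1 had a site. With these sites left out of the gene medians compared between buffers below, the difference moved from 1.26 to 0.54 log2 units for ACTG1 and from 0.27 to 0.76 for TUBA1C, with no call in either case.

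TUBB4B, a broadly expressed β-tubulin, had 10, 13, 6 and 3 sites with medians of 1.24, 1.135, 6.04 and 11.6. Its sites between 34 and 55 bp from the start formed a dense group in the 5′ UTR. The one at 55 bp was the longest reproducible site with sarkosyl, although its replicates, 7.75 and 1.59, were far apart. A site at 43 bp, listed only in sarkosyl-free replicate 1, had 4.83. The sarkosyl times at 34 and 39 bp ran from 0.797 to 0.853. At 46 bp the times were 0.859 in sarkosyl replicate 2 and 0.905 in sarkosyl-free replicate 2, and at 49 bp they were 1.17 in sarkosyl replicate 1 and 0.268 in sarkosyl-free replicate 1. The only position common to both sarkosyl-free series was a guanine in a coding exon 2194 bp from the start, at 11.4 and 11.6, where sarkosyl replicate 2 had 3.72.

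TUBB2A, a β-tubulin enriched in neurons, had 4, 2, 2 and 0 sites, none of them in more than 1 series. Of its 8 positions, 6 lay within 114 bp of the start. The longest was a guanine in the first coding exon, 19.2 in sarkosyl replicate 1, whose 30 bases also occur in the neighbouring TUBB2B, where the copy had 23.3 and 10.2 with sarkosyl. The other 7 ranged from 0.364 to 1.55.

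TUBB, the β-tubulin most abundant in many dividing cells, had no site in any series. It lies on chromosome 6 at 30720201 to 30725426, inside a stretch between the listed sites at 29946764 and 31167989 (1221 kb, with 39 protein-coding genes) in which no series listed a site on either strand. The nearest site of a series was at least 773 kb below the gene and 443 kb above it. Alternate contigs of chromosome 6 carried 121, 143, 161 and 86 sites. The absence therefore covered the whole stretch, and it is not a measurement of polymerase on TUBB.

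VIM, the vimentin gene, had 20, 19, 16 and 10 sites with medians of 3.48, 2.42, 4.91 and 13.5. Its sites were long for their series: 18 of 20, 15 of 19, 11 of 16 and 7 of 10 lay above the median of all sites, and the VIM median exceeded it by 1.22, 0.85, 1.138 and 0.75 on the log2 scale. The longest reproducible site with sarkosyl lay 104 bp from the main start, in the 5′ UTR, at 15.9 and 7.46. The site at 45 bp had 2.58 and 1.68 with sarkosyl and 0.325 in sarkosyl-free replicate 1. The shortest reproducible site with sarkosyl was in a coding exon at 4534 bp, at 1.81 and 1.96. A further site 42 bp from an upstream start had 3.31 and 2.42 with sarkosyl. In the gene body an intronic site 3173 bp from the start had 14.5 and 6.37 with sarkosyl, and sites at 4215 and 3341 bp had 9.43 and 19.2, and 5.75 and 7.75, without it.

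Promoter-proximal sites were a minority. Within 300 bp downstream of an annotated start lay 26.4% and 20.7% of the set's sites with sarkosyl and 25.8% and 21.2% without. Over all sites in annotated genes the shares were 41.0% and 32.4% with sarkosyl and 22.4% and 22.4% without. For these the start could be that of any gene on the strand, whereas the set's distances run from each gene's own starts. The mean for the 9 genes was thus the same in both buffers, 23.5% ± 4.03 and 23.5% ± 3.21 (SD, n = 2 each), while all genic sites had 36.7% ± 6.06 with sarkosyl. Pooled over the 9 genes, the median pausing time near the start was shorter than in the rest in each series, by -0.22 and -0.57 on the log2 scale with sarkosyl and by -3.26 and -0.33 without. Single genes went both ways. Near the start the median was longer in TUBA1C, by 2.20 and 0.58 with sarkosyl, and in TUBA1A, by 0.37 and 0.37. It was also longer for ACTG1 in sarkosyl replicate 1 (0.13) and for TUBA1B in sarkosyl-free replicate 2 (0.88). All genic sites had the same sign, with a mean of -0.34 ± 0.08 and -0.75 ± 0.17.

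**Figure D2:**
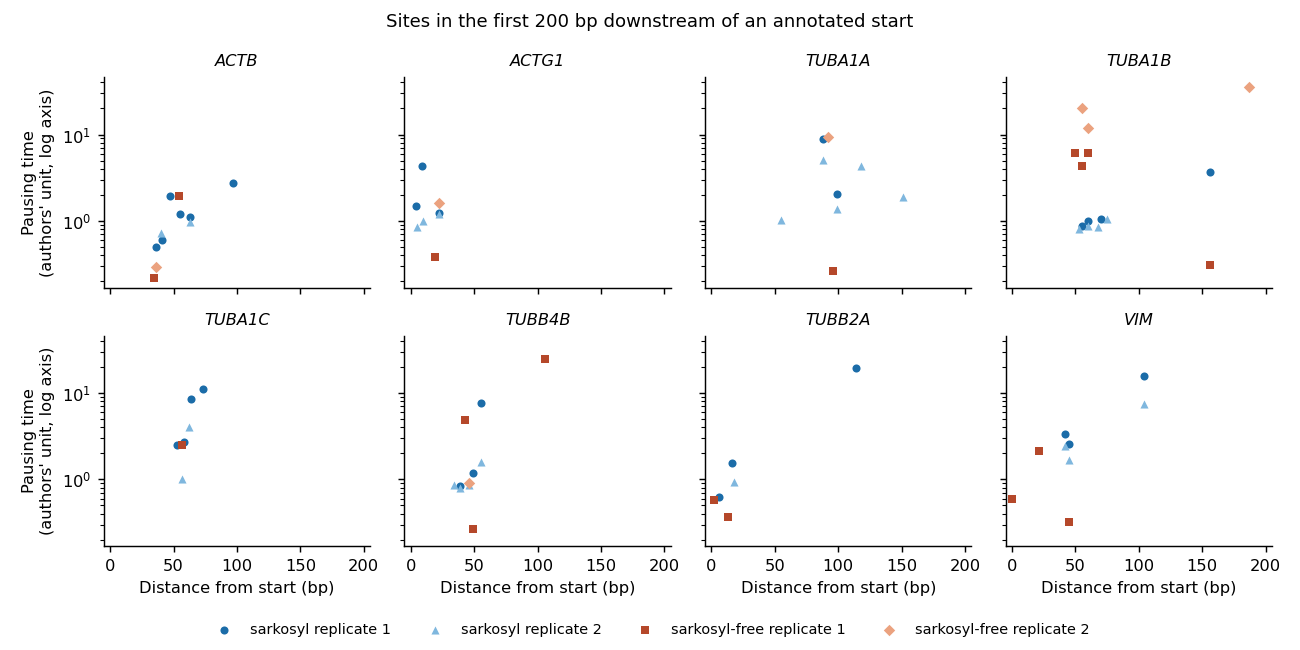
Sites in the first 200 bp by gene (distance from the nearest upstream start in bp against pausing time on a log axis, symbols by series). In TUBA1B the sarkosyl-free symbols between 50 and 60 bp sit at 4.29 to 20.4, above the sarkosyl symbols there, which run from 0.797 to 1.004. Times are uncentred, and the medians over all sites were also longer without sarkosyl.

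Most sites fell in annotated exons: 82.7% ± 1.29 with sarkosyl and 77.3% ± 2.14 without (SD, n = 2 each), against 57.0% ± 4.32 and 45.9% ± 1.59 of all genic sites. Annotated exons cover 3574 of 3616 bp in TUBA1B and 2111 of 2495 bp in TUBB4B. They cover 5158 of 9335 bp in VIM and 4631 of 85868 bp in TUBA1C. The part of this annotation in the exon shares was not tested. Protein-coding exon sequence held 36.4% and 36.4% of the sites with sarkosyl and 18.2% and 21.2% without. The 3′ UTR held 7.36% ± 0.117 with sarkosyl and 16.7% ± 2.14 without, and introns held 17.3% ± 1.29 and 22.7% ± 2.14. In each of these 3 classes the series of the 2 buffers did not overlap, but the classes were not counted over all genic sites. Exons held a lower share of all genic sites without sarkosyl too, 45.9% against 57.0%. The 5′ UTR held alike shares, 18.7% ± 1.87 and 19.7% ± 2.14.

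The base at the site differed between buffers. With sarkosyl 82.6% and 79.8% of the set's sites stood at a cytosine, whereas 41.7% and 30.8% did without it. For guanine the shares were 15.2% and 16.2% (sarkosyl) and 50% and 65.4% (sarkosyl-free). Every site of ACTB and TUBA1A with a known base in a sarkosyl series was a cytosine, apart from an adenine in ACTB and a thymine in TUBA1A. TUBA1B had a guanine at 13 of 16 and 5 of 6 sarkosyl-free sites, against 7 of 21 and 7 of 25 with sarkosyl. The same order held over all sites with transcript sequence, 73.6% and 72.0% cytosine with sarkosyl and 50.4% and 23.5% without. The base before the site was a cytosine at 64.1% and 60.6% of the set's sites with sarkosyl, and an adenine at 45.8% and 38.5% without.

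**Figure D3:**
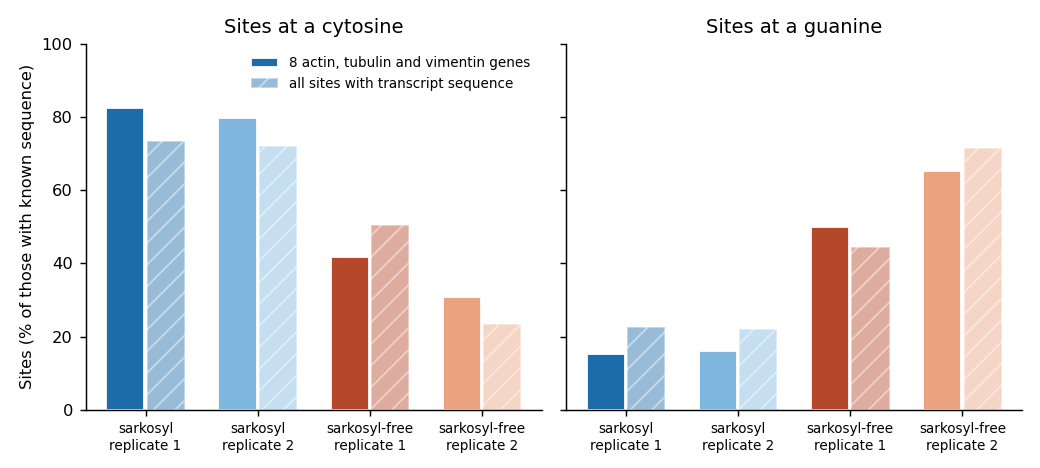
Share of sites at a cytosine (left) and a guanine (right) in each series, for the actin, tubulin and vimentin genes (solid) and for all sites with transcript sequence (hatched). The set's cytosine bars reach 82.6% and 79.8% in the sarkosyl series, but 41.7% and 30.8% in the sarkosyl-free ones.

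Pausing times also varied with the base. Pooled over the 9 genes, the median at guanines exceeded that at cytosines by 1.74 and 3.04 log2 units without sarkosyl (2.94 against 1.20 and 3.54 against 0.49), and by 1.15 and 0.01 with sarkosyl. The order was not the same in each gene: in TUBA1B, which held 13 of the 24 guanines of sarkosyl-free replicate 1, cytosines were the longer there by 0.51, and in ACTG1 they were longer by 1.46 in sarkosyl-free replicate 2. Over all sites with transcript sequence the mean of the log2 medians was also higher at guanines. Without sarkosyl it was 2.430 ± 1.162 at guanines and 1.143 ± 0.396 at cytosines (SD, n = 2 each). With sarkosyl it was 0.519 ± 0.102 and 0.397 ± 0.075. The pooled order was therefore not particular to the 9 genes. Since the mix of bases also differed between buffers, base and buffer move together in the gene medians below, and the part of the base in them was not tested.

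Polymerase sites continued past the annotated ends of the actin genes. In the 5 kb after the gene end on the same strand, ACTB had 14, 21, 12 and 3 sites, as many as or more than inside the gene, with medians of 2.45, 1.40, 4.45 and 4.22. ACTG1 had 17, 20, 8 and 5, TUBA1B 7, 15, 6 and 5, VIM 4, 7, 8 and 6, and TUBB4B 8, 6, 4 and 1. TUBA1A had 2 such sites in 1 series, TUBA1C had 1 in each sarkosyl-free series, and TUBB2A had none. None of these sites lay in another annotated gene of that strand.

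The buffers were compared gene by gene on the median log2 pausing time, for the 1769 genes with at least 3 sites in every series, each series centred on its median over these genes. The comparison used limma with Benjamini-Hochberg adjustment over all genes. ACTB and ACTG1 had longer centred medians with sarkosyl, by 1.40 (SE 0.58, adjusted p = 0.534) and 1.26 (SE 0.90, adjusted p = 0.702) log2 units. TUBB4B and TUBA1B had shorter ones, by -1.23 (SE 0.59, adjusted p = 0.593) and -0.65 (SE 0.63, adjusted p = 0.752). TUBA1C and VIM differed by 0.27 (SE 0.62) and 0.09 (SE 0.56), with adjusted p = 0.909 and 0.974. None of the 6 genes tested passed an adjusted p of 0.05, and 0% of all genes did. At an unadjusted p under 0.05 the count was 0 of 6, against 165 of 1769 genes (9.33%). TUBA1A, TUBB2A and TUBB had too few sites to be tested.

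In the centred values the ACTB medians were 0.23 and -0.06 with sarkosyl and -1.64 and -0.99 without. Those of TUBB4B were -0.41 and -0.34 against 1.26 and 0.44. The buffers did not overlap in either gene, but the share of all tested genes without overlap was not counted. The ACTG1 difference rested on sarkosyl-free replicate 2 (-2.41), since replicate 1 had 0.11 and the sarkosyl series 0.24 and -0.02. Without sarkosyl-free replicate 1 the ACTG1 difference was 2.50 with limma adjusted p = 0.0271, in a fit that called 232 of 1860 genes (12.5%) and took the spread of the lone sarkosyl-free series from the sarkosyl ones. Without replicate 2 it was -0.05, and none of 7 member genes was called, against 191 of 2292 genes (8.33%). VIM was above the centre in each series, by 1.08, 0.75, 0.99 and 0.65, but the share of all tested genes above it in each series was not counted. Before centring, the sign was opposite for ACTB (-0.18), ACTG1 (-0.32), TUBA1C (-1.31) and VIM (-1.49), as the median difference of all tested genes was then -1.44 in place of 0.14.

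**Figure D4:**
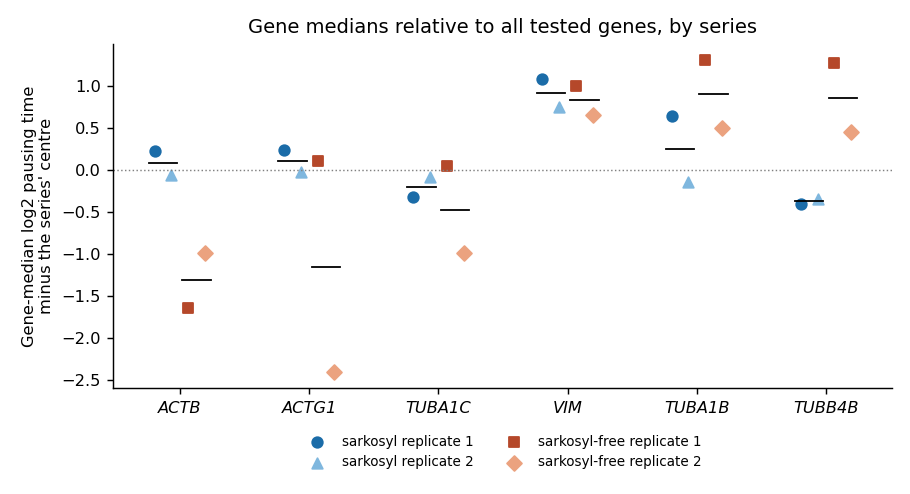
Gene-median log2 pausing time minus the series' centre over 1769 genes for the 6 genes tested (symbols by series, black bars at the mean of each buffer). VIM lies above 0 in all 4 series, but how many of all tested genes do so was not counted. ACTB and TUBB4B separate the buffers in opposite directions, but how many of all tested genes separate them was not counted.

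At single positions, 2967 sites shared by all 4 series were tested in the same way, and 2 belonged to the set. The TUBA1B site at 60 bp was shorter with sarkosyl by -3.07 log2 units (SE 0.75, unadjusted p = 0.00706, limma adjusted p = 0.156). The ACTG1 coding-exon site differed by 2.71 (SE 1.79, limma adjusted p = 0.391). Neither of the 2 passed the adjusted threshold, and 0% of all shared sites did. At an unadjusted p under 0.05 the TUBA1B site was 1 of 689 sites (23.2% of those tested). Leaving out a sarkosyl-free replicate, with the lone remaining series assumed to vary like the sarkosyl ones, called many sites: 2348 of 4287 (54.8%) without replicate 1 and 1188 of 4962 (23.9%) without replicate 2. Without replicate 1, the TUBA1B site was the only one called of 4 member sites tested (limma adjusted p = 0.00704), and the ACTG1 site differed by 0.10. Without replicate 2, 3 of 6 member sites were called: the TUBA1B site (limma adjusted p = 0.0295), the ACTG1 site, by 5.29 (limma adjusted p = 0.0262), and the VIM site at 45 bp, by 2.55 (limma adjusted p = 0.0375). The other 3 were TUBA1B sites, with limma adjusted p from 0.0681 to 0.842.

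Among other actin genes and actin partners, 36, 35, 42 and 33 of 46 genes had a site, and 10 could be tested. None was called; 6 had longer and 4 shorter centred medians with sarkosyl, with a median difference of 0.56 against 0.14 for all tested genes. The largest differences were 2.34 for TPM1, a tropomyosin that lines actin filaments (SE 0.57, adjusted p = 0.429), 1.67 for CFL1, the filament-severing cofilin (SE 0.66, adjusted p = 0.509), and 1.20 for ACTN4, a filament crosslinker. For TPM1 and CFL1 the unadjusted p was 0.00588 and 0.0429 in limma.

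Of 35 other tubulins and microtubule partners, 29, 28, 29 and 28 had a site. The list gave 8 tested gene identifiers, as TBCE has 2, of which 4 were longer and 4 shorter, with none called and a median difference of 0.11. MAP1B, a microtubule-binding protein, differed by -1.40 (SE 0.59), TUBE1, ε-tubulin, by 1.07 (SE 1.25) and DYNC1H1, the dynein heavy chain, by 0.69 (SE 0.69). Of 15 other intermediate filament genes and partners, 9 had a site in each series, though not the same 9, as INA was listed only with sarkosyl and PLEC only without; 8 were in all 4. LMNB1 and LMNB2, which encode lamins of the nuclear envelope, were tested and differed by -0.17 and -0.14.

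The genes whose centred medians over the 4 series were most like those of TUBA1B, among 304 genes with at least 10 sites in every series, included AC015813.1 at a Euclidean distance of 0.0971 log2 units and RPL37A, a ribosomal protein gene, at 0.335. TUBA1B itself was not in that number, having 7 sites in sarkosyl-free replicate 2. The 4 medians of RPL37A were 0.49, 0.04, 1.07 and 0.48, beside 0.64, -0.14, 1.31 and 0.50 for TUBA1B.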

How the data were processed

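The deposited values are scores: per the file headers, each row of the authors' 4 tables gives a site's position, strand, quartiles and median of an estimated rate, and a pausing time, which equals 1 divided by that median in every row. Per the submitters' processing notes, cutadapt 1.14, HISAT2 2.1.0, SAMtools and bedtools were used with build hg38; the rule for calling sites, the model, its prior and the read placement are not given in the sources used here. That each table pools the 4 run-on times of a replicate is inferred from its name. The number of value columns left unmapped was 0. The sample labelled Trp treatment (1 of 17) comes without a table and is not analysed here.

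Positions were read as counting from 1, because the base at the listed position was C or G at 94.1% to 96.4% of sites on both strands. Starts were those of GENCODE release 29 principal transcripts and of RefSeq promoters (GRCh38), and a distance runs from the nearest start upstream; this rule was chosen after the sites had been seen. Sequence came from GENCODE transcripts, so introns without a transcript have none. Log2 pausing times were fitted with limma 3.58.1 in R 4.3.3 and tested on simulated data; other steps used Python 3.11.15, pandas 2.3.3, numpy 2.4.6 and matplotlib 3.10.9. Sites named singly were those in all 4 series and, per gene and buffer, the longest and shortest of those in both replicates; others were chosen after their values were seen. Listed partner genes were the 3 with the largest difference. The genes and lists were chosen with earlier results of these data known. A gene of like pattern and a site that this rule would name are not reported here.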

Additional observations from a re-analysis of the deposited data

How the results depend on the processing

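The genes called by the gene-median fit stayed at 0 with at least 5 sites or 1 site per gene, gene means, quantile normalization, no centring and the replicate block; leaving out 1 series gave 0 to 232 calls. The sites called by the single-site fit stayed at 0 without centring and without mitochondrial sites, and were 158 after quantile normalization and 161 with the replicate block; leaving out 1 series gave 0 to 2348. The replicate numbers did not pair the series: deviations of same-numbered series correlated at r = 0.0134 over sites and 0.0566 over gene medians. TUBA1B (-2.23 to -0.26) and TUBB4B (-2.81 to -0.57) kept their sign in each of 12 and 10 alternatives. The sign turned without centring for ACTB (-0.18), ACTG1 (-0.32), TUBA1C (-1.31) and VIM (-1.49). It also turned for VIM with at least 1 site (-0.096) and when 1 series was left out (range -0.126 to 0.25). For TUBA1C it turned with gene means (-0.093) and when 1 series was left out (-0.292 to 0.768), and for ACTG1 when 1 series was left out (-0.047 to 2.50) and without sites within 300 bp of a start (-0.28). The cause was not tested. Leaving out sites in repeated sequence turned no sign but moved ACTG1 from 1.26 to 0.54 and TUBA1C from 0.27 to 0.76, and gene means moved ACTG1 to 0.29. With a window of 500 bp the share near a start was 29.5% with sarkosyl and 27.3% without, and in exons of protein-coding transcripts alone 68.9% and 59.8%. No site lay in another annotated gene of the same strand. With depth unknown, an unlisted site cannot be read as one without polymerase.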
